A study of Homo sapiens with 8 samples.

Results

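SON TSA-seq signal was examined at 9 genes that encode components of nuclear speckles and paraspeckles: SON, SRRM2, MALAT1, NEAT1, SRSF1, SRSF2, SRRM1, PNN and PRPF4B. Each gene was represented by the genomic windows that hold its transcription start site on hg19. These were 9 windows of 100 kb and 9 windows of 50 kb a gene, 1 from each of 9 shifted window sets. MALAT1 and NEAT1 share 2 of the 100 kb windows, so the genes occupy 79 distinct windows of 278316 at 100 kb and 81 of 556938 at 50 kb. The start sites are placed at 34.915 Mb on chromosome 21 (SON), 2.803 Mb on chromosome 16 (SRRM2), 65.265 Mb and 65.19 Mb on chromosome 11 (MALAT1 and NEAT1), 56.085 Mb and 74.733 Mb on chromosome 17 (SRSF1 and SRSF2), 24.97 Mb on chromosome 1 (SRRM1), 39.644 Mb on chromosome 14 (PNN) and 4.021 Mb on chromosome 6 (PRPF4B).

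The libraries come from 786-O, an established human clear cell renal carcinoma line that lacks functional VHL and depends on HIF-2α. Cells received 2 µM PT2399, a small molecule inhibitor of HIF-2α, or DMSO vehicle, for 3 h, with 2 SON pulldowns and 2 inputs per treatment. Titles and antibody or treatment fields disagreed in 4 of the 8 libraries, and the titles were followed here. The direction of every change therefore rests on the column names control and treatment, read as DMSO and PT2399. The assay used DNA, so markers of the cell type could not be checked.

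Nuclear speckles are bodies rich in splicing factors that lie between chromosomes, and active, gene-dense chromatin tends to lie near them. SON and SRRM2 are the large proteins that hold a speckle together, and MALAT1 is a long noncoding RNA that accumulates in it. Paraspeckles are separate bodies, often found beside speckles, that are built on the long noncoding RNA NEAT1. In TSA-seq an antibody against SON guides biotin deposition onto nearby DNA, so a high signal at a gene describes where its chromatin lies and not how much of its product is made.

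Signal is given as log2 concentration, which the authors deposited as 1 value per treatment and window. Values of single libraries were not used here, so depth and the spread between replicates are unknown, and the FDR given by the authors stands as the error. The labels do not say whether replicates were separate cultures, so this error may be technical. Changes are PT2399 minus DMSO, averaged over a gene's 9 windows. These windows overlap and are not replicates, and their range shows how much a value depends on where a window is set. A window counts as measured where both treatments reach a log2 concentration of 2, and windows without signal stand at a floor of -0.07 for DMSO and -0.11 for PT2399. All 79 windows at 100 kb and 80 of 81 at 50 kb were measured.

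Promoter sequences of SRRM2 and SRSF1 are shown because SRRM2 had a negative change in all its windows and SRSF1, an SR protein gene, in only some. The pair was thus picked from the changes, and MALAT1, NEAT1 and SRSF2 also had a negative change in all their windows at both sizes. The sequences are the 250 bases before the RefSeq start site on GRCh38.p14, at chr16:2752388-2752637 on the plus strand and chr17:58007247-58007496 on the minus strand. Capitals mark the core letters of the hypoxia response element, ACGTG or GCGTG, searched on both strands (CACGT and CACGC on the other), with overlapping matches counted separately.
SRRM2: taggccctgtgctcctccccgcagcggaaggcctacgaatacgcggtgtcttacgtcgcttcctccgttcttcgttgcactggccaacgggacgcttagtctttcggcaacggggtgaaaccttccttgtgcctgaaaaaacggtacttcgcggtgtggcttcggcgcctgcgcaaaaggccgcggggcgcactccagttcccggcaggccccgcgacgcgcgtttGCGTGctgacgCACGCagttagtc
SRSF1: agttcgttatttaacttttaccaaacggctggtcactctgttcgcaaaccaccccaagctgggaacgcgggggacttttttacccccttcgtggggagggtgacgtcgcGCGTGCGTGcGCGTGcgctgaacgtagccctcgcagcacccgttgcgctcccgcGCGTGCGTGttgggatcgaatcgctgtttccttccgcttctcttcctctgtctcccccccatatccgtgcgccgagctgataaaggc

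SRRM2 holds 2 matches and SRSF1 holds 5. The RefSeq table lists 9 promoters for 6 of the member genes, and 5 of these 9 hold at least 1 match, as do 43.2% of all 35116 promoters of this length. No promoter was listed for NEAT1, SRSF2 or PRPF4B, so these genes were not searched. SRRM1 holds a match at 1 of its 3 promoters and MALAT1 at both of its own. SON and PNN had 0 matches. The letters are a description of these windows of sequence, and the 50 kb windows of signal do not resolve a promoter.

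The 9 genes spanned much of the range of SON signal in DMSO-treated cells. MALAT1 stood highest in 100 kb windows with a mean log2 concentration of 11.70 (11.60 to 11.79 over its windows), which placed it at the 99.0th percentile of measured windows. NEAT1 followed at 11.57 (11.52 to 11.71, 98.5th percentile) and SRRM2 at 11.55 (11.38 to 11.62, 98.3rd percentile). At 100 kb NEAT1 and SRRM2 overlapped in level, while MALAT1 overlapped them only through the 2 windows it shares with NEAT1 (11.60 and 11.71). The other MALAT1 windows began at 11.63, above the highest SRRM2 window and the highest unshared NEAT1 window (11.58). In 50 kb windows, where none is shared, the 3 genes overlapped in level. There SRRM2 came first with 10.70, beside 10.70 for MALAT1 and 10.65 for NEAT1. The 2 noncoding RNA genes that build or enter these bodies and 1 of the scaffold protein genes thus lay among the windows of highest SON signal.

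SRSF2, which encodes an SR protein that binds exonic splicing enhancers, had a DMSO level of 11.02 (10.82 to 11.15) and stood at the 94.2nd percentile of measured windows. SRRM1, a splicing coactivator with serine and arginine repeats, stood at 10.33 (10.08 to 10.59, 82.8th percentile). Neither range overlapped those of its neighbours in the order at 100 kb. SRSF1, an SR protein that acts in both constitutive and alternative splicing, had 9.18 (8.76 to 9.64). Its percentile was 60.8 among all measured windows and 36.8 among those of chromosome 17.

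The gene for SON itself, the protein that the antibody recognises, lay near the middle. Its DMSO level was 8.52 (8.29 to 8.68), at the 48.5th percentile, beside a median of 8.60 over measured windows. PRPF4B, a kinase that acts on the spliceosome, stood at 7.77 (7.57 to 7.98, 34.9th percentile) and PNN, an SR-related protein of speckles, at 7.20 (6.52 to 7.54, 26.1st percentile). Among measured windows of the gene's own chromosome, the percentile was 47.0 at SON, 54.2 at PRPF4B and 39.6 at PNN. Ranges did not overlap between SRSF1, SON, PRPF4B and PNN at 100 kb, but those of neighbours in this order did at 50 kb. Over the 9 genes the median percentile was 82.8, and against all windows, floor included, every gene stood at or above the 76.0th percentile.

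**Figure D1:**
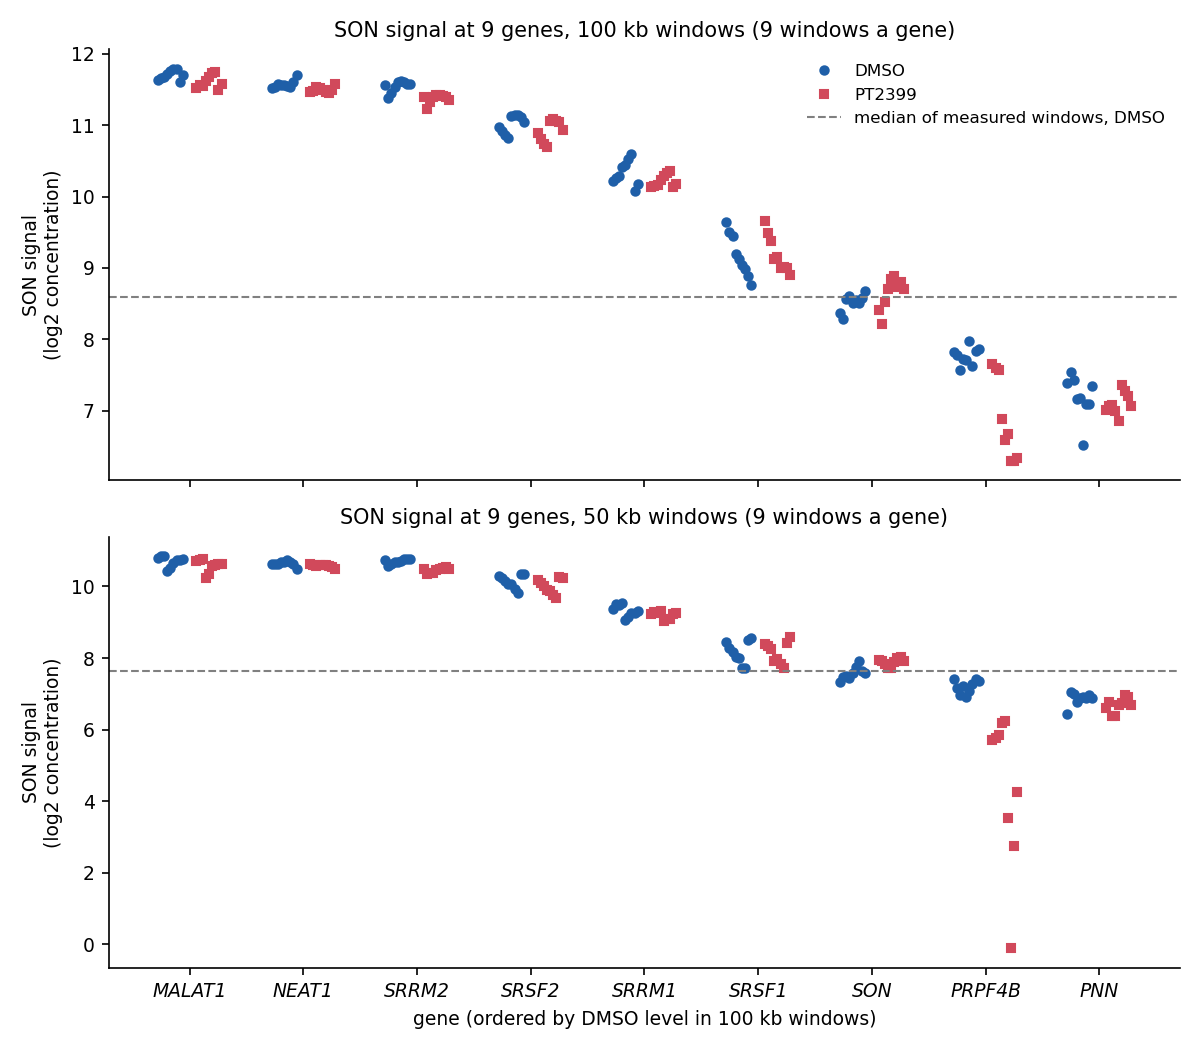
SON signal (log2 concentration, y axis) at each of the 9 genes (x axis), in 100 kb windows above and 50 kb windows below. Each point is 1 of the 9 windows of a gene, circles for DMSO and squares for PT2399, and the dashed line is the DMSO median of measured windows (8.60 at 100 kb and 7.64 at 50 kb). MALAT1, NEAT1 and SRRM2 lie highest, and at PRPF4B the PT2399 points at 50 kb reach down to -0.11.

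With PT2399 the change was called at 1 of the 9 genes, PRPF4B, and in 50 kb windows only. Of the 79 windows at 100 kb, 0 were lower and 0 higher at an FDR of at most 0.01 in the authors' deposited tables. Over measured 100 kb windows, 1.55% were called lower and 0.0853% higher (0.614% and 0.139% of all windows). At an unadjusted p under 0.05, 17 of the 79 windows were lower and 0 higher, beside 15.3% and 1.95% of measured windows. Overlapping windows of SRRM2 made up 9 of the 17, so the count is not one of separate loci. At 50 kb, 2 of the 81 windows, which overlap each other, were called lower and 0 higher, beside 0.176% and 0.0503% of all windows. Of measured windows 0.357% were called lower and 0.0291% higher, but 1 of the 2 stood at the PT2399 floor and was not measured. For the smaller windows 16 of 81 had a change below 0 at an unadjusted p under 0.05 and 0 had one above 0, beside 9.72% and 1.79% of measured windows. Overlapping windows of SRRM2 made up 9 of the 16, which also include the window that was not measured.

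The median of the 9 mean changes was -0.10 at 100 kb and -0.13 at 50 kb, while the median over all measured windows was -0.13 and -0.12. Mean changes lay below 0 at 7 genes at both sizes, and 67.5% of measured 100 kb windows lay below 0. Set against the median of measured windows, 2 of the 9 genes at 100 kb, SRRM2 and PRPF4B, were on the lower side, and 5 at 50 kb, where SRSF2, SRRM1 and PNN joined them. The 5 genes of highest DMSO level (MALAT1, NEAT1, SRRM2, SRSF2 and SRRM1) had mean changes between -0.18 and -0.07 at 100 kb, and single windows between -0.23 and 0.06. The other 4 (SON, SRSF1, PNN and PRPF4B) ran from -0.89 to 0.13, and their windows from -1.54 to 0.84.

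**Figure D2:**
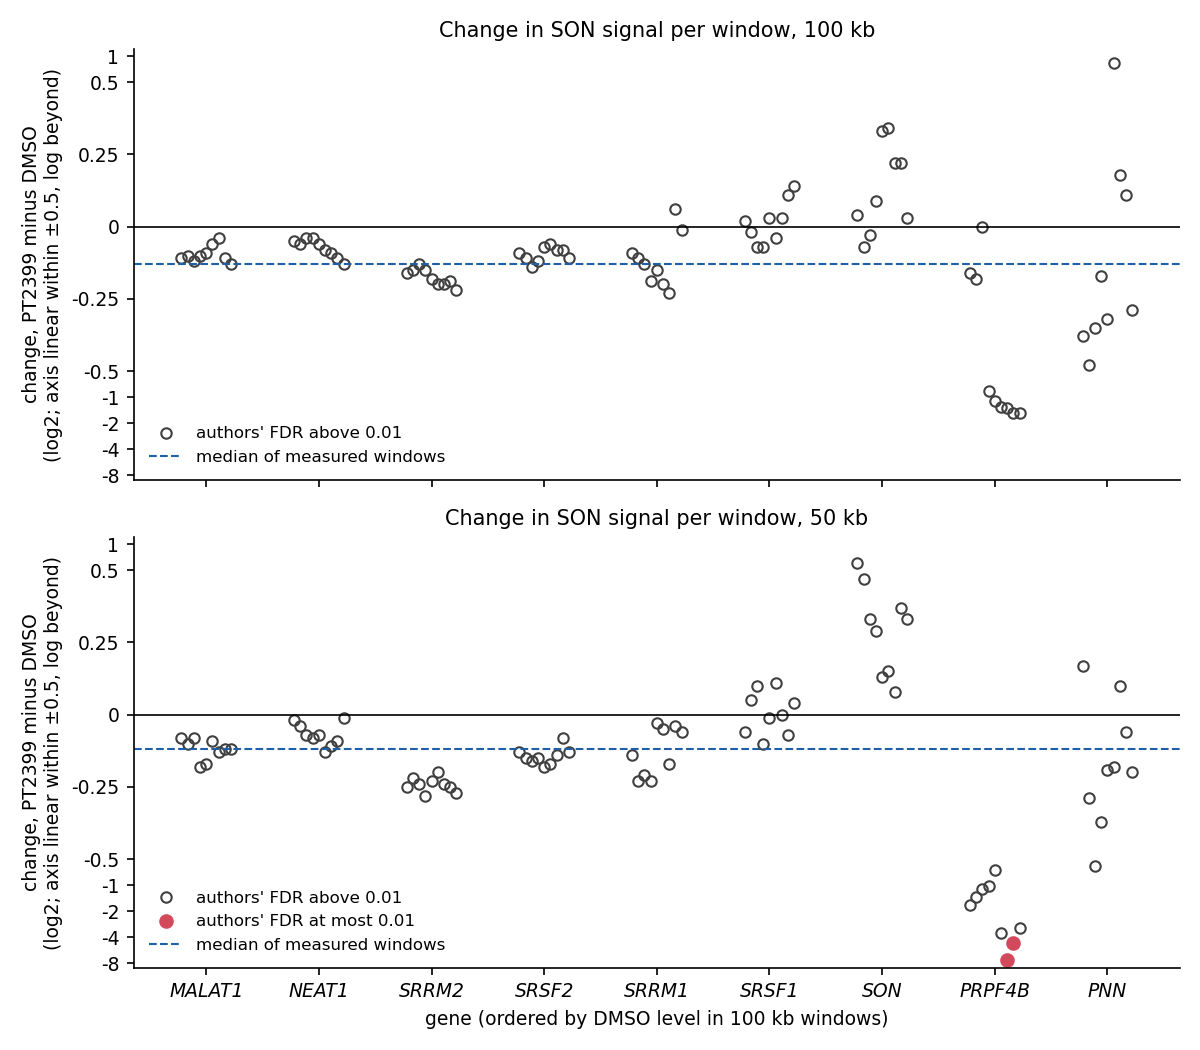
Change in SON signal per window (PT2399 minus DMSO, log2, on an axis that is linear within ±0.5 and logarithmic beyond) at each gene, in 100 kb windows above and 50 kb windows below. Filled points mark the 2 windows, both at PRPF4B, with an authors' FDR of at most 0.01, and the dashed line is the median of measured windows (-0.13 and -0.12). SRRM2, MALAT1, NEAT1 and SRSF2 lie below 0 in every window at both sizes and SON lies above 0 in all 9 windows at 50 kb.

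PRPF4B had the largest change of the 9 genes. In 50 kb windows its DMSO level lay between 6.91 and 7.42 and its PT2399 level between -0.11 and 6.24, so that the 2 treatments did not overlap. Signal fell in chr6:3980001-4030000 from 7.27 to the PT2399 floor of -0.11, which is -7.38 on the log2 scale (the authors' deposited table gives FDR 5.9e-05). It also fell in chr6:3985001-4035000, where 7.42 became 2.75 and the change was -4.67 (the authors' deposited table gives FDR 0.000797). A fold that ends at or near the floor carries little signal on 1 side, and its size is not well set.

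The other 7 windows of 50 kb at PRPF4B did not pass the threshold, and their changes ran from -3.57 to -0.67. The mean change was -2.74 over all 9 windows and -2.16 over the 8 measured ones, a version added after seeing the data. PRPF4B was the only member in the authors' deposited list of genes at lower 50 kb windows, which holds 1.1% of 20056 protein-coding genes. Their 100 kb list, with 4.27% of these genes, held 0 of the 9 members. Of the 2 called windows at PRPF4B, chr6:3985001-4035000 was in the authors' deposited list of lower windows. The other, chr6:3980001-4030000, which ended at the floor, was not.

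In 100 kb windows the mean change at PRPF4B was -0.89, which left 54.0% of the DMSO level, and the windows ran from -1.54 to 0.00. The lowest FDR was 0.0609, at chr6:3970001-4070000, where signal went from 7.84 to 6.30, in the authors' deposited table. The fold and p-value of that window imply a 95% interval of -2.59 to -0.49. The 3 windows that began latest, at 4000001, 4010001 and 4020001, had changes of -0.16, -0.18 and 0.00. The 50 kb windows with the same starts had changes of -1.70, -1.12 and -0.67. The value thus depended on where the window was set and on its size. The 100 kb window at chr6:3980001-4080000 had a PT2399 level of 6.34, although the 50 kb window with the same start stood at the floor.

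Around PRPF4B the changes took both signs. Of the 9 windows of 50 kb centred 96 to 56 kb before the start site, 8 had a change above 0, with a median of 1.19. At 100 kb, 3 of the 4 windows centred 91 to 51 kb before the start site had a change below 0 instead, with a median of -0.19. All 11 windows of 50 kb centred 39 to 94 kb after it lay above 0, between 0.50 and 1.42, and so did 4 of the 6 windows of 100 kb centred 39 to 89 kb after it. Those centred 39 and 49 kb after it, with changes of -0.18 and 0.00, hold the start site and are among the gene's own windows. None of the 20 windows of 50 kb passed the threshold, the lowest FDR being 0.253 before and 0.247 after the start site in the authors' deposited tables. These segments were chosen after their values were seen.

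**Figure D3:**
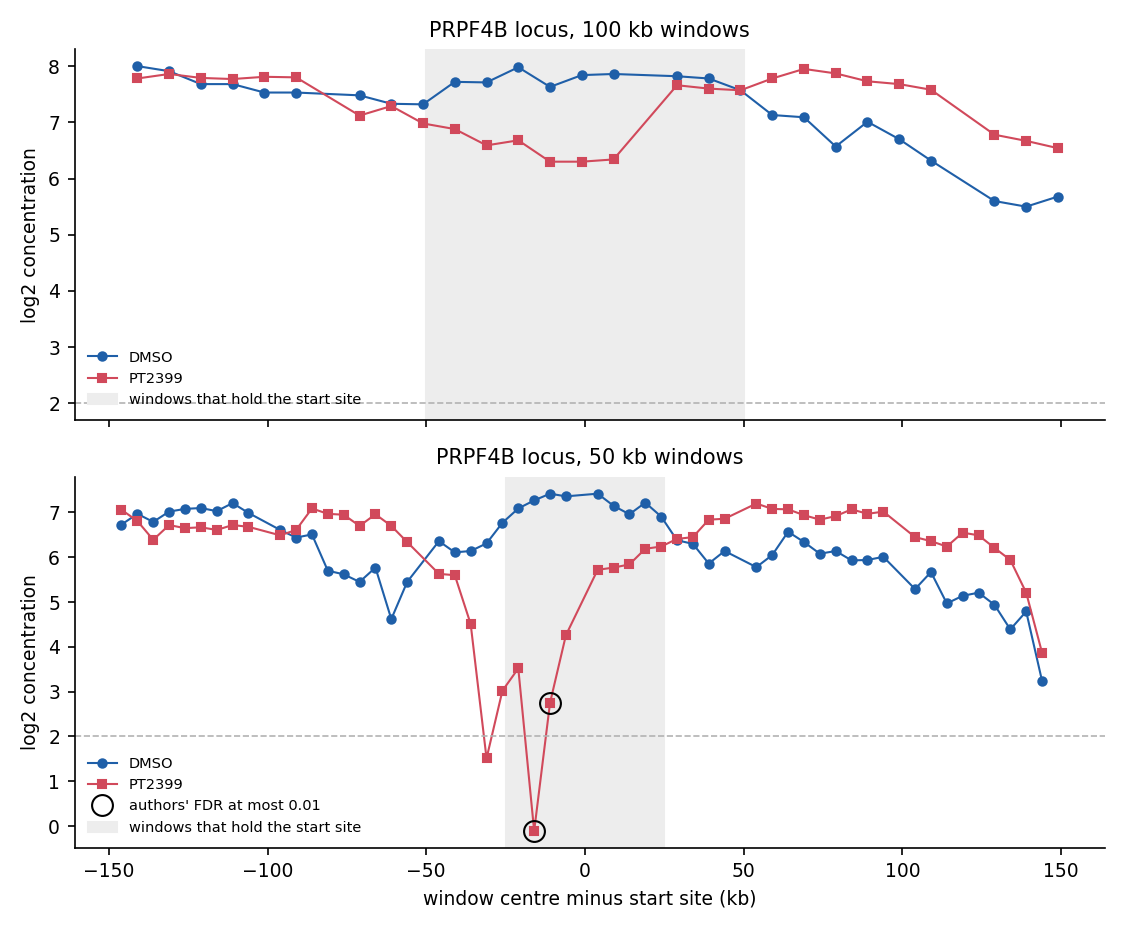
SON signal (log2 concentration) in windows of 100 kb (above) and 50 kb (below) against the distance of the window centre from the PRPF4B start site in kb, for DMSO (circles) and PT2399 (squares). Shading marks windows that hold the start site, the dashed line is the minimum of 2 for a measured window, and rings mark the 2 windows with an authors' FDR of at most 0.01. At 50 kb the PT2399 signal dips to -0.11 in the shaded windows while DMSO stays between 6.91 and 7.42 there.

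SRRM2 had the most negative mean change among the 5 genes of highest level. In 100 kb windows its signal was 11.38 to 11.62 with DMSO and 11.23 to 11.42 with PT2399, and all 9 changes lay between -0.22 and -0.13. The lowest FDR was 0.0142, at chr16:2750001-2850000, where 11.62 became 11.42 (authors' deposited table), and the implied 95% interval of that change was -0.31 to -0.09. At an FDR of at most 0.05, 5 of its 9 windows at 100 kb and 3 at 50 kb were lower, beside 4.29% and 1.25% of measured windows, and 0 were higher, beside 0.331% and 0.115%. In 50 kb windows its signal was 10.58 to 10.78 with DMSO and 10.36 to 10.53 with PT2399, so that these ranges did not overlap, and the changes ran from -0.28 to -0.20. The implied 95% interval lay below 0 in all 9 windows at each size, with no adjustment over windows. The mean change of -0.18 left 88.5% of the DMSO level.

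Windows with as much signal as SRRM2 varied little. Measured 100 kb windows of the top decile of level had quartiles of -0.17 and -0.05, and on average the SRRM2 change stood at the 25.4th percentile of its decile at 100 kb and at the 13.9th at 50 kb. When the median of measured windows was subtracted from each set (recentring), the mean change at SRRM2 was -0.05 at 100 kb and -0.12 at 50 kb. Its lowest adjusted p, from the implied errors, was 0.681 at 100 kb and 0.598 at 50 kb.

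Mean changes at the 2 noncoding RNA genes were smaller in size than at SRRM2 in both window sizes, a difference that was not tested. MALAT1 went from a mean of 11.70 to 11.61 at 100 kb, with changes of -0.13 to -0.04 and a lowest FDR of 0.166 in the authors' deposited table. NEAT1 went from 11.57 to 11.50, with changes of -0.13 to -0.04 and a lowest FDR of 0.194. The change of -0.13 is the same shared window for both genes, and it also gave the lowest FDR at NEAT1. In the NEAT1 windows without the MALAT1 start site, changes ran from -0.09 to -0.04, with a lowest FDR of 0.378 in the authors' deposited table. The windows centred nearest the start sites of MALAT1 and NEAT1 had implied 95% intervals of -0.22 to 0.02 and -0.19 to 0.07. In 50 kb windows the mean changes were -0.12 at MALAT1 and -0.07 at NEAT1. No window of either gene passed the threshold at either size.

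Among the splicing factor genes, SRSF2 had changes of -0.14 to -0.06 at 100 kb (lowest FDR 0.350) and SRRM1 of -0.23 to 0.06 (lowest FDR 0.123) in the authors' deposited tables. SRSF1 lay on both sides of 0, from -0.07 to 0.14, with a mean of 0.01 and a lowest FDR of 0.815. PNN had the widest range over windows after PRPF4B, from -0.48 to 0.84 at 100 kb (lowest FDR 0.497 in the authors' deposited table). Its central window had a change of -0.38 with an implied 95% interval of -1.46 to 0.70. In 50 kb windows the mean changes were -0.14 at SRSF2, -0.13 at SRRM1, 0.01 at SRSF1 and -0.18 at PNN. With PT2399, PNN stood 8th and PRPF4B 9th in the order of levels, the reverse of their order with DMSO.

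SON was the member with the most positive change. At 100 kb its signal was 8.29 to 8.68 with DMSO and 8.22 to 8.89 with PT2399, ranges that overlap, with 7 of 9 changes above 0 and a mean of 0.13. In 50 kb windows all 9 changes lay above 0, from 0.08 to 0.61, with a mean of 0.31. No window passed the threshold, the lowest FDR being 0.396 at 100 kb and 0.335 at 50 kb in the authors' deposited tables. The central 100 kb window had an implied 95% interval of -0.27 to 0.71. After recentring all 9 changes at SON lay above 0 at each size, with a lowest adjusted p of 0.504 at 100 kb and 0.637 at 50 kb.

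**Figure D4:**
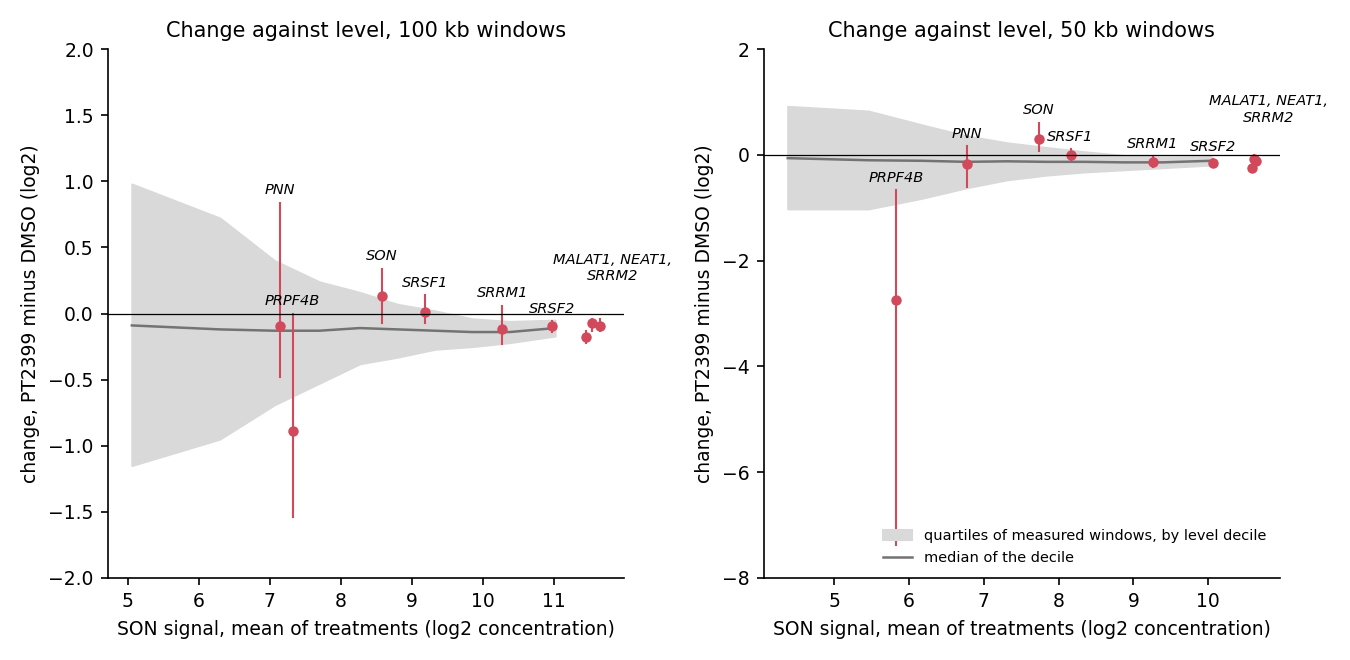
Mean change (PT2399 minus DMSO, log2) against the mean signal of both treatments (log2 concentration) for the 9 genes, in 100 kb windows (left) and 50 kb windows (right), with different y axes. Points are means over 9 windows, vertical lines their range, the grey band the quartiles of measured windows by decile of level and the grey line their median. The band narrows to the right, to quartiles of -0.17 and -0.05 in the top decile at 100 kb, and the mean of PRPF4B lies below it in both panels.

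The windows at each gene were then set beside those within 500 kb of its start site. All 9 genes had a mean DMSO level above the median of their flanks at both sizes, by between 0.09 (SRRM1) and 7.27 (PNN) at 100 kb. That median includes the gene's own windows. Start sites of other genes were not compared, so the pattern is not shown to be particular to these genes. The share of flanking windows, own windows included, with a lower DMSO level ran from 56.1% at SRSF2 to 95.6% at PNN. At 7 genes every flanking window was measured. PNN lay on an island of signal, where 63 of the 90 windows of 100 kb were below the minimum and the flank median was the floor of -0.07. At PRPF4B 21 of 90 were below it. The highest level near SRSF1 was 10.25 in a window centred -105 kb from its start site, and near SRRM2 11.99 in one centred 247 kb from its own.

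At SRRM2 the lowest change of the 90 windows of 100 kb was in a window of the gene itself, -0.22 at chr16:2780001-2880000, and the flank median was -0.03. At 50 kb a window outside the gene's own, chr16:2590001-2640000, had a change of -0.28, equal to the lowest at the gene. At MALAT1 and NEAT1 the flank medians were -0.06, and at SRRM1 -0.16, where 96.7% of the measured windows lay below 0. Beyond the windows that hold a start site, 3 of 565 distinct measured windows of 100 kb within 500 kb of a member were called lower at an FDR of at most 0.01 (0.531%), beside 1.55% of all measured windows, and 0 were called higher. At 50 kb 0 of 1198 such windows were called, beside 0.357% lower and 0.0291% higher. In chr21:35110001-35210000, 245 kb after the SON start site, signal fell by 1.97, to 6.49 from 8.46 (the authors' deposited table gives FDR 0.000252). In chr17:74400001-74500000 and chr17:74410001-74510000, before SRSF2, it fell by 0.23 and 0.22 (FDR 0.00358 and 0.00765 in the authors' deposited table).

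**Figure D5:**
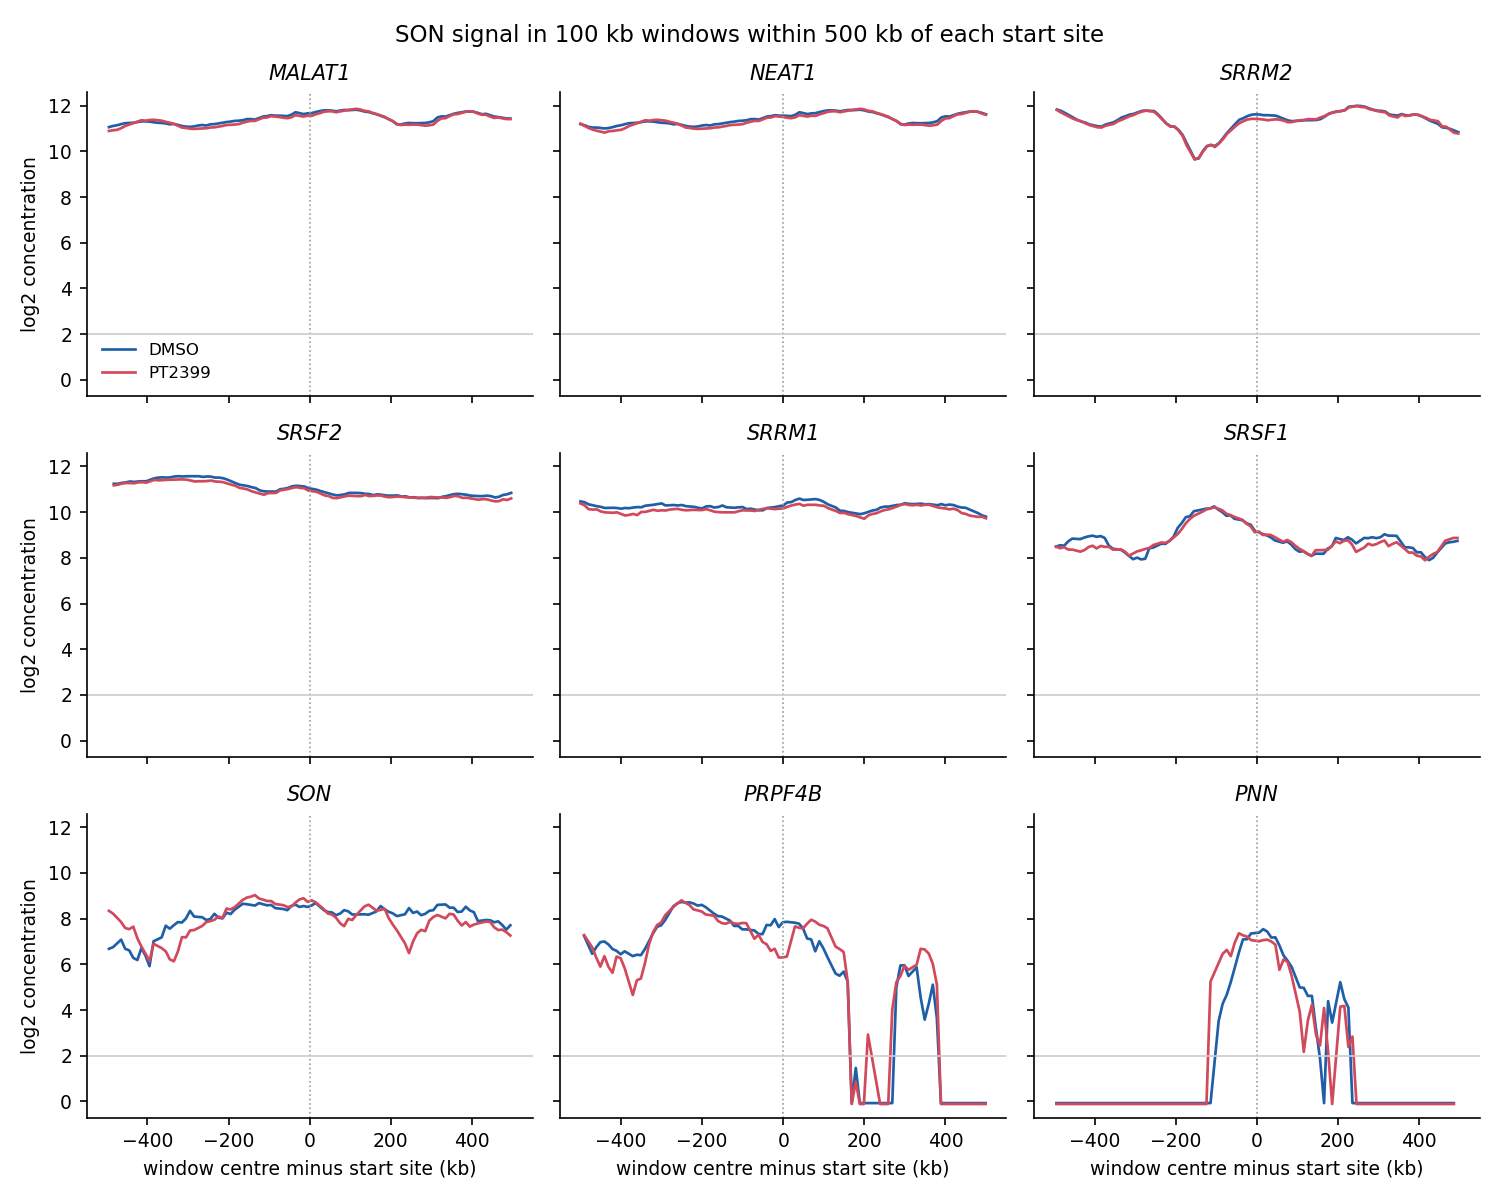
SON signal (log2 concentration) in 100 kb windows with DMSO and PT2399 against the distance of the window centre from the start site in kb, 1 panel a gene in the order of DMSO level. The grey line is the minimum of 2 for a measured window. MALAT1, NEAT1 and SRRM2 lie in broad stretches of high signal, and PNN stands on an island between windows at the floor.

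Other genes of these bodies were looked up by symbol in the authors' deposited lists of genes at lower windows, since no position on hg19 was used for them. Of 77 such genes, 9 were in the 100 kb list (11.7%) and 2 in the 50 kb list (2.6%), beside 4.27% and 1.1% of 20056 protein-coding genes. That background holds genes without measured signal and was not matched on SON level. Of 40 splicing factors and other speckle proteins, 5 were in the 100 kb list. These were RBM39, a splicing factor, THRAP3, a coactivator of splicing and transcription, EFTUD2, the GTPase of the U5 snRNP, and EIF4A3 and CASC3, both of the exon junction complex. EIF4A3 and CASC3 were also in the 50 kb list.

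Of 15 speckle kinases and cyclins, DYRK3, a kinase that dissolves speckles and other condensates in mitosis, was in the authors' deposited 100 kb list and 0 were in the 50 kb list. Among the 22 paraspeckle proteins, MATR3, an RNA-binding protein of the nuclear matrix, and RBM12 were in the 100 kb list, and 0 of the 22 were in the 50 kb list. The lists hold no fold for a gene, and hold lower windows only.

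For the 8 members other than PRPF4B the RefSeq table gave the 5 protein-coding genes on either side, used for gene order only. MALAT1 and NEAT1 have the same 10 neighbours, which leaves 70 distinct genes. Of these, 0 were in the authors' deposited 100 kb or 50 kb list, beside 4.27% and 1.1% of protein-coding genes, so that few would be listed at the background share. PRPF4B, the only member with called windows, was left out because the RefSeq table did not hold it under that symbol. The 8 members looked up had 0 called windows of their own. The 0 among their nearest neighbours was therefore partly set beforehand and is not a result about these loci.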

How the data were processed

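SON TSA-seq was run on 786-O cells. Bowtie2, Picard, bedtools, DiffBind and the build hg19 are named in the submitters' processing notes, with roles, settings, input use and scaling not given in the sources used here. Each window has log2 concentrations per treatment and a log2 fold, per the file headers of the deposited tables. A p-value and FDR come with every window, also per the file headers. The deposited fold equals control minus treatment to within 0.01, so changes here carry the opposite sign. Lists of lower windows and of the genes at them are deposited too.

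Window sets step by 10 kb (100 kb windows) or 5 kb (50 kb windows). Start sites were given to 1 kb. A percentile is the share of measured windows of the same set below a value, averaged over sets. The authors' FDR of at most 0.01 was the call. An implied standard error is the absolute change over the normal quantile of the p-value, replaced by the median of its level bin (20 bins) where the change was under 0.1 or p reached 0.5. Recentring subtracted the median of measured windows and used this error, with Benjamini-Hochberg over measured windows. It was also run on 1 simulated set of 100 kb windows. The noise there was drawn from these same implied errors, so that run cannot check the errors themselves.

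The genes, gene lists and minimum of 2 were chosen with earlier results of these data known. Named genes were all 9 members and listed genes in a deposited list, 1 of which is not reported here. Of the 1023 and 258 deposited symbols, 982 and 251 matched RefSeq (GRCh38.p14). Python 3.11.15 was used with scipy 1.17.1, pandas 2.3.3, matplotlib 3.10.9 and numpy 2.4.6.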

Additional observations from a re-analysis of the deposited data

How the results depend on the processing

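No paired analysis was possible because the tables hold 1 value per treatment and none per library, so no replicate could be left out either. The count of lower 100 kb windows at the members, 0 of 79 at an FDR of 0.01, became 5 at 0.05 and 8 at 0.1. The count at 50 kb, 2 of 81, became 5 at 0.05 and 10 at 0.1. Over all measured windows 4.29% and 1.25% were lower at 0.05, and the share at 0.1 was not computed. Overlapping windows of SRRM2 made up 5 of the 5 and 6 of the 8 at 100 kb, and 3 of the 5 and 7 of the 10 at 50 kb. With implied errors the count at 50 kb was 1, both with and without recentring, since the window at the floor is not measured and has no such error. Adjusting over all sets together left 0 and 2, and higher windows stayed at 0 in each setting run. The median change over members, -0.10, ran from -0.13 in 50 kb windows to 0.03 after recentring. At 100 kb recentring turned the mean change above 0 at MALAT1, NEAT1, SRSF2, SRRM1 and PNN (at 50 kb SRSF2, SRRM1 and PNN stayed below 0), and the central window alone turned SRSF1 to -0.07, none of them called. Listed speckle and paraspeckle genes numbered 9 at 100 kb and 2 at 50 kb. Start sites lay within 1 kb of a window border in some windows, and leaving these out moved the mean change most at PRPF4B, by -0.11 at 100 kb and by -0.26 at 50 kb (to -2.99 from -2.74), the latter added after seeing the data. Depth is unknown, and at low levels such as PNN's the quartiles of change are wide (-0.69 and 0.40 in the third decile at 100 kb). The cause was not tested for the counts that moved other than by threshold or list.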
